A study of Mus musculus with 18 samples.

Results

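The motile cilia genes described here are 41 genes that build, regulate or fill the beating cilium, taken by symbol from a deposited count table of 50584 mouse genes. All 41 were in the table, and 40 of them had enough counts to be tested. The remaining gene, Mcidas, had 5 counts in all 18 libraries together. The libraries were made from choroid plexus, the tissue in the brain ventricles that secretes cerebrospinal fluid, of MRL/lpr and MRL/+ mice. The MRL/lpr strain is homozygous for lpr, a loss-of-function allele of the death receptor gene Fas, and is a model of systemic lupus, while MRL/+ is the control strain of that background without the allele. The 4 groups crossed the strains with an age of 12 or 16 weeks, with 6 libraries of each age in MRL/lpr and 3 of each age in MRL/+, and no treatment is named for any of them. Sex is not given in the labels, and nothing says whether each library came from a separate animal or from pooled animals, so the spread behind each p-value may be technical.

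A motile cilium is a cell extension with a core of doublet microtubules, the axoneme. Dynein arms on the doublets slide them against each other, radial spokes and the central apparatus time that sliding, and rulers, nexin links and inner microtubule proteins hold the structure together. Ependymal cells, which line the ventricles, carry tufts of such cilia that move cerebrospinal fluid, and the choroid plexus epithelium, which is continuous with the ependyma, also carries tufts of cilia. The transcription factor Foxj1 turns on motile cilia genes together with the RFX factors, which bind the X-box motif in the promoters of cilia genes.

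The letters of that motif can be read in the promoters. A RefSeq window on the mouse build GRCm38.p6, from 250 bases before to 50 bases after the gene start, was given for 34 of the 41 members. The letters GTTGCC, part of the X-box, or their reverse complement GGCAAC stood in 15 of these 34 windows (44.1%), against 14.1% of the 27025 genes with windows of the same length. The forkhead letters TGTTTAC or their reverse complement GTAAACA stood in 3 of the 34 (8.8%), those of Ak7, Cfap43 and Mlf1, against 4.1% of all genes. Both motifs were searched on both strands, and their matches did not overlap in any member's window. A match describes letters only and is not a measured binding site.

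The windows of 5 members are shown because the results below turn on these genes: Drc1 and Ak7 are among the members called at 16 weeks, Tekt1 and Mlf1 had the smallest p-values for an interaction of strain and age, and Ccdc153 varied most between libraries among the members with a motif. Capitals mark the motifs. The windows lie at chr5:30281143-30281442 (plus strand) for Drc1, chr12:105705732-105706031 (plus) for Ak7, chr11:72361833-72362132 (minus) for Tekt1, chr3:67373847-67374146 (plus) for Mlf1 and chr9:44240427-44240726 (plus) for Ccdc153.
Drc1: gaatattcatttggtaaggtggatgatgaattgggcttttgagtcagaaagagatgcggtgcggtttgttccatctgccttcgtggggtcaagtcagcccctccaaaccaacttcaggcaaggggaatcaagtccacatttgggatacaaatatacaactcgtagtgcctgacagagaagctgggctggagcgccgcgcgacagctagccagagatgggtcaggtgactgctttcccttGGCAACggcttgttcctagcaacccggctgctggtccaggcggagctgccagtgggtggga
Ak7: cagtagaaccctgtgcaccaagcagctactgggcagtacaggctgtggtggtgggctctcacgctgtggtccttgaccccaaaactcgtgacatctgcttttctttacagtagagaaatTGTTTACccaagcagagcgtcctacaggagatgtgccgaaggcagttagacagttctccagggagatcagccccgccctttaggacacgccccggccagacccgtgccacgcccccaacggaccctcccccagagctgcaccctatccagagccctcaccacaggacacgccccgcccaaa
Tekt1: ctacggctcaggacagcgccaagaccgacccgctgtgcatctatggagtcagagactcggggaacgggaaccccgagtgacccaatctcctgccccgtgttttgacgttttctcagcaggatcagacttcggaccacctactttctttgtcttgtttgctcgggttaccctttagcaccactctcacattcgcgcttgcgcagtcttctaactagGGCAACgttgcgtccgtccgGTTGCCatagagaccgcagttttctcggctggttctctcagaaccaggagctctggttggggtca
Mlf1: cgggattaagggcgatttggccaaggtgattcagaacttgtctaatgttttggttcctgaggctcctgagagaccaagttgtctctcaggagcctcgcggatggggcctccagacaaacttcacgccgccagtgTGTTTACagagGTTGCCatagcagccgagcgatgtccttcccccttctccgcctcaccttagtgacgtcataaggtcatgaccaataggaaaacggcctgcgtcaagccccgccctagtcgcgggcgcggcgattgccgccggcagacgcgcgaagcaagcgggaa
Ccdc153: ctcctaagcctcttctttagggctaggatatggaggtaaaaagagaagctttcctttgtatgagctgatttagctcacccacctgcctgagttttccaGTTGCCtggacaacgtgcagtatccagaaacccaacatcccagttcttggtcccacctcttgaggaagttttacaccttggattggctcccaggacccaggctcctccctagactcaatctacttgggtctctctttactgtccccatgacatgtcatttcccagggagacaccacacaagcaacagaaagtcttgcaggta
The Tekt1 window holds GGCAAC at position 216 and GTTGCC at position 236, counted from 1 at the 5′ end. Mlf1 has both kinds of motif, with TGTTTAC at position 135 and GTTGCC at position 146. The Drc1 window has GGCAAC at position 240, and Ccdc153 has GTTGCC at position 99. Ak7 has the forkhead letters alone, at position 120. The windows of Spag17 and Dnah2, the other members called at 16 weeks, hold neither motif.

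Total counts ran from 11164284 to 14602253 per library. Levels are CPM, the usual counts scaled to a common library size, here with sizes adjusted by the TMM method. Choroid plexus epithelium markers were abundant in every library: transthyretin (Ttr) stood between 122000 and 233000 CPM and Klotho (Kl) between 1470 and 3420 CPM in the libraries. Some libraries stood apart. Pineal gland markers summed to 82.7 CPM in MRL/lpr 12 weeks replicate 1 and 64.1 CPM in replicate 4 of that group, against at most 22.4 CPM in the other libraries. Cerebellum markers summed to 544 CPM in MRL/+ 12 weeks replicate 1 and skeletal muscle markers to 457 CPM in MRL/+ 16 weeks replicate 1. These 4 libraries are called the carry-over libraries below. Pituitary markers also varied, with sums from 18.2 to 88.1 CPM, and did not define this set. They were highest in MRL/lpr 12 weeks replicates 3 (88.1 CPM) and 2 (85.6 CPM), which the fits without the carry-over libraries keep. Brain markers varied too: the 14 neuron genes summed to between 62.2 and 920 CPM, highest in MRL/lpr 16 weeks replicates 6 (920) and 3 (866) and MRL/+ 12 weeks replicate 1 (755), and the 10 astrocyte genes to between 198 and 1110 CPM, highest in MRL/lpr 16 weeks replicate 3. Leukocyte markers summed to between 627 and 13700 CPM in the MRL/lpr libraries and between 64.3 and 120 CPM in the MRL/+ libraries. In whole tissue, fewer cells of a type and less RNA per cell cannot be told apart.

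Across genes, levels were compared per kilobase of exon. The radial spoke head gene Rsph1 stood highest, at 123 ± 21.7 CPM per kilobase (SD, n = 18), and its partner Rsph9 next, at 82.8 ± 19.1 CPM per kilobase. Foxj1 had 65.7 ± 9.07 CPM per kilobase, Mlf1 60.2 ± 22.2, the microtubule inner protein gene Tekt1 55.4 ± 15.4 and Cfap126 44.4 ± 10.2, in the same unit. The SDs of these neighbours overlap. They are taken over all 18 libraries, in which the genes were measured together, so they do not show whether the order changes within a library. At the low end stood Hydin with 0.595 ± 0.248 CPM per kilobase, Dnah1 with 0.267 ± 0.154, Spag17 with 0.188 ± 0.0991 and Dnah5 with 0.125 ± 0.116. Dnah9 and Dnah11, which like Dnah5 encode heavy chains of the outer dynein arm, had 3.29 ± 0.823 and 2.33 ± 0.754 CPM per kilobase.

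**Figure D1:**
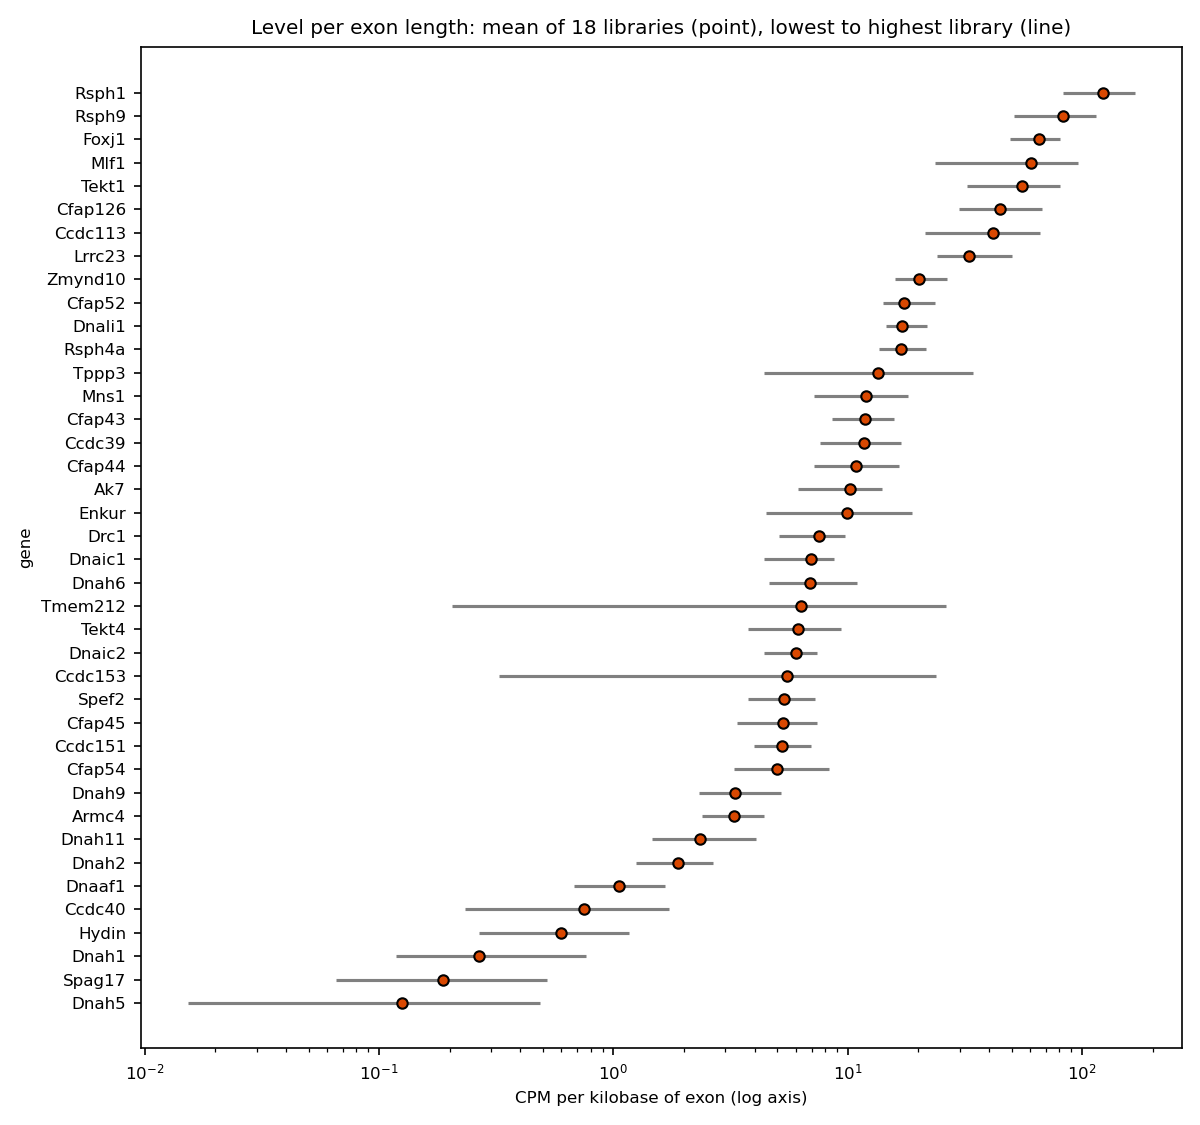
Level of the 40 tested members as CPM per kilobase of exon on a log axis, with the mean of 18 libraries (point) and the range from the lowest to the highest library (line). Rsph1 is at the top with 123 CPM per kilobase and Dnah5 at the bottom with 0.125, and the lines of Tmem212, Ccdc153 and Dnah5 are the longest.

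No difference between groups was detected for Foxj1, the master regulator. Its level was 166, 188 and 194 CPM in the MRL/+ libraries at 12 weeks and 153, 167 and 210 CPM in those at 16 weeks. MRL/lpr libraries ran from 145 to 211 CPM at 12 weeks (median 166) and from 129 to 197 CPM at 16 weeks (median 168). The 4 groups overlapped, and the highest library had 1.64 times the level of the lowest. The log2 fold change of MRL/lpr against MRL/+ was -0.10 (SE 0.153) at 12 weeks and -0.08 (SE 0.153) at 16 weeks, with edgeR adjusted p of 0.733 and 0.734. With scaling to the summed counts of the choroid plexus epithelium list instead, most of which are Ttr, the 16-week estimate became 0.46 (adjusted p = 0.0827). It was 0.004 without MRL/lpr 16 weeks replicate 4 and 0.058 without MRL/+ 16 weeks replicate 3.

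Other regulators of cells with many cilia were read from a list of 17 genes, 14 of them tested. Gmnc, which starts the multiciliated programme, was at 40.1 to 104 CPM, and Trp73, a transcription factor of the same programme, at 33.1 to 49.6 CPM. Rfx2 stood between 18.9 and 29.7 CPM and Rfx3 between 36.4 and 98.7 CPM. Several genes of the same list were low or at 0. Mcidas had 1 count in each of 5 libraries and none elsewhere, and Ccno reached at most 0.75 CPM, Cdc20b 0.174 CPM and Deup1 3.42 CPM. Foxn4 had 0 counts in all 18 libraries, which by counting error alone allows an expected total of up to 3 counts over the 18 libraries together. Other genes of centriole duplication, which dividing cells also use, were higher: Cep63 was at 32.9 to 58 CPM, Cep152 at 4.19 to 10.2 CPM and Plk4 at 1.88 to 5.81 CPM. The transcription partners of Mcidas were at 13.4 to 28.3 CPM for E2f4, 13.9 to 35.8 CPM for E2f5 and 25.3 to 36.6 CPM for Tfdp1.

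Members differed widely in how steady they were between libraries. With TMM scaling the inner arm light chain gene Dnali1 had the smallest range of the 40 tested members, from 30.9 to 46.3 CPM or 1.5-fold, with a coefficient of variation of 12.7% over 18 libraries. Rsph4a (radial spoke head), Zmynd10 (dynein arm assembly), Cfap52 (inner microtubule protein) and Dnaic2 (outer arm intermediate chain) had ranges of 1.6, 1.66, 1.67 and 1.68-fold. The order depended on the scaling: relative to the choroid plexus epithelium list the range of Dnali1 was 2.13-fold, and the smallest were those of Rsph1 (1.63-fold), Rsph9 (1.64-fold) and Cfap45 (1.76-fold). Dnali1 was at 32.9, 36.3 and 39.6 CPM in MRL/+ at 12 weeks and at 38.9, 33.5 and 30.9 CPM in MRL/+ at 16 weeks, and MRL/lpr libraries ran from 31.9 to 46.3 CPM at 12 weeks (median 37.5) and from 31.2 to 40.6 CPM at 16 weeks (median 33.7). The strains overlapped at both ages.

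Members from other parts of the axoneme follow. Rsph1, of the radial spoke head, was at 116, 152 and 163 CPM in MRL/+ at 12 weeks and at 172, 154 and 151 CPM in MRL/+ at 16 weeks, and MRL/lpr libraries ran from 108 to 195 CPM at 12 weeks (median 155) and from 96.4 to 151 CPM at 16 weeks (median 133). Its 16-week groups met at 151 CPM. Rsph4a, of the same spoke head, was at 49.4, 68.0 and 67.2 CPM and then 61.4, 51.2 and 55.5 CPM in MRL/+, beside 54.3 to 78.9 CPM (median 69.3) and 52.8 to 68.4 CPM (median 56.9) in MRL/lpr. The groups overlapped at both ages.

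Armc4, which docks the outer arm, was at 8.96, 12.5 and 11.8 CPM and then 11.1, 9.55 and 9.01 CPM in MRL/+ at the 2 ages, beside 11.5 to 15.2 CPM (median 13) and 8.26 to 11.7 CPM (median 10.7) in MRL/lpr. Zmynd10 was at 37.2, 43.1 and 44.5 CPM and then 41.1, 44.1 and 40.9 CPM in MRL/+, beside 33.9 to 56.2 CPM (median 48.1) and 34.2 to 47.2 CPM (median 40.1) in MRL/lpr. Both genes overlapped between the strains at both ages. Ccdc39, a ruler that sets the spacing of inner arms and spokes, was at 79.5, 95.1 and 96.6 CPM and then 111, 78.0 and 75.5 CPM in MRL/+, beside 57.1 to 126 CPM (median 98.1) and 56.7 to 110 CPM (median 76.2) in MRL/lpr. Cfap126, which acts inside the doublets, was at 62.7, 79.8 and 84.9 CPM and then 90.7, 92.0 and 72.3 CPM in MRL/+, beside 52.8 to 120 CPM (median 97.0) and 57.7 to 79.9 CPM (median 65.0) in MRL/lpr. The strains overlapped for both of these genes too.

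At the other end stood Ccdc153, a nexin link gene, and Tmem212, a membrane protein gene found in ciliated cells. Ccdc153 was at 48.1, 7.90, 12.3, 48.2, 3.66 and 1.43 CPM in MRL/lpr replicates 1 to 6 at 12 weeks, at 0.663 to 16.0 CPM in MRL/lpr at 16 weeks (median 8.32), at 2.99, 12.2 and 2.59 CPM in MRL/+ at 12 weeks and at 3.68, 5.65 and 1.20 CPM in MRL/+ at 16 weeks. Replicates 1 and 4 of MRL/lpr at 12 weeks stood about as high as each other and far above the rest, and all groups overlapped. Tmem212 was highest in the same libraries, at 18.8 and 18 CPM, and lowest in MRL/lpr 16 weeks replicate 4, at 0.147 CPM, which rests on 2 counts. Its other MRL/lpr libraries lay between 0.41 and 6.93 CPM and its MRL/+ libraries between 0.439 and 5.96 CPM. Tppp3, a tubulin polymerisation gene, was high in these replicates too (59.1 and 53.5 CPM) and highest in MRL/lpr 16 weeks replicate 3 (63.3 CPM), and stood at 8.11 to 27.2 CPM elsewhere. 

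The outer arm heavy chain gene Dnah5 ran from 0.239 CPM (3 counts) in MRL/+ 16 weeks replicate 3 to 7.62 CPM in MRL/lpr 12 weeks replicate 4. Its MRL/lpr libraries had medians of 2.33 CPM at 12 weeks and 1.5 CPM at 16 weeks, and its MRL/+ libraries were at 1.02, 4.07 and 0.628 CPM and then 0.614, 1.27 and 0.239 CPM, overlapping at both ages. Dnah9, the more abundant outer arm chain, was at 56.0, 50.5 and 65.0 CPM in MRL/+ at 12 weeks and at 37.0, 37.4 and 39.5 CPM in MRL/+ at 16 weeks. MRL/lpr libraries ran from 40.8 to 81.6 CPM (median 53.4) and from 42.5 to 82.8 CPM (median 47.6), so that the 3 MRL/+ libraries at 16 weeks were the lowest of all 18.

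Markers of ependyma that are not cilia genes had high sums in the libraries where Ccdc153, Tmem212 or Tppp3 stood highest. That list of 9 genes, all with counts in every library and none at 0, summed to 677 CPM in MRL/lpr 12 weeks replicate 1, to 667 CPM in MRL/lpr 16 weeks replicate 3 and to 521 CPM in MRL/lpr 12 weeks replicate 4. It ran from 231 to 677 CPM in MRL/lpr at 12 weeks, 268 to 667 CPM in MRL/lpr at 16 weeks, 187 to 292 CPM in MRL/+ at 12 weeks and 181 to 274 CPM in MRL/+ at 16 weeks. Of the 3 high sums, 214, 152 and 118 CPM came from Vim alone. Leukocyte markers in those libraries summed to 7810, 5920 and 2210 CPM. In MRL/lpr 16 weeks replicate 1 the ependyma sum was 514 CPM, 238 CPM of it from Vim, while Ccdc153 was at 6.13 CPM and Tppp3 at 19.6 CPM. That library had the highest leukocyte sum (13700 CPM). The list of 9 pineal markers ran from 7.83 to 82.7 CPM in MRL/lpr at 12 weeks, 8.19 to 22.4 CPM in MRL/lpr at 16 weeks, 4.32 to 6.59 CPM in MRL/+ at 12 weeks and 5.35 to 6.82 CPM in MRL/+ at 16 weeks. Of its defining genes, Tph1 was at 30.1 and 27.5 CPM in MRL/lpr 12 weeks replicates 1 and 4, while Asmt had counts in 3 of 18 libraries and was at 0 in the others. Of the ependyma list, Rarres2 and Vim rose in MRL/lpr at 12 weeks (5.01% of all genes did) and Vim at 16 weeks (8.49%). At each age 7 of its 9 estimates were positive and 2 negative. Its genes did not peak together: Vim was highest in MRL/lpr 16 weeks replicate 1 (238 CPM) and Nnat in MRL/lpr 16 weeks replicate 3 (176 CPM). Mia was highest in MRL/+ 16 weeks replicate 2 (2.92 CPM). The part of ependyma or pineal tissue in the levels of Ccdc153 and Tmem212 was not tested, nor was the part of leukocytes in the level of Vim.

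**Figure D2:**
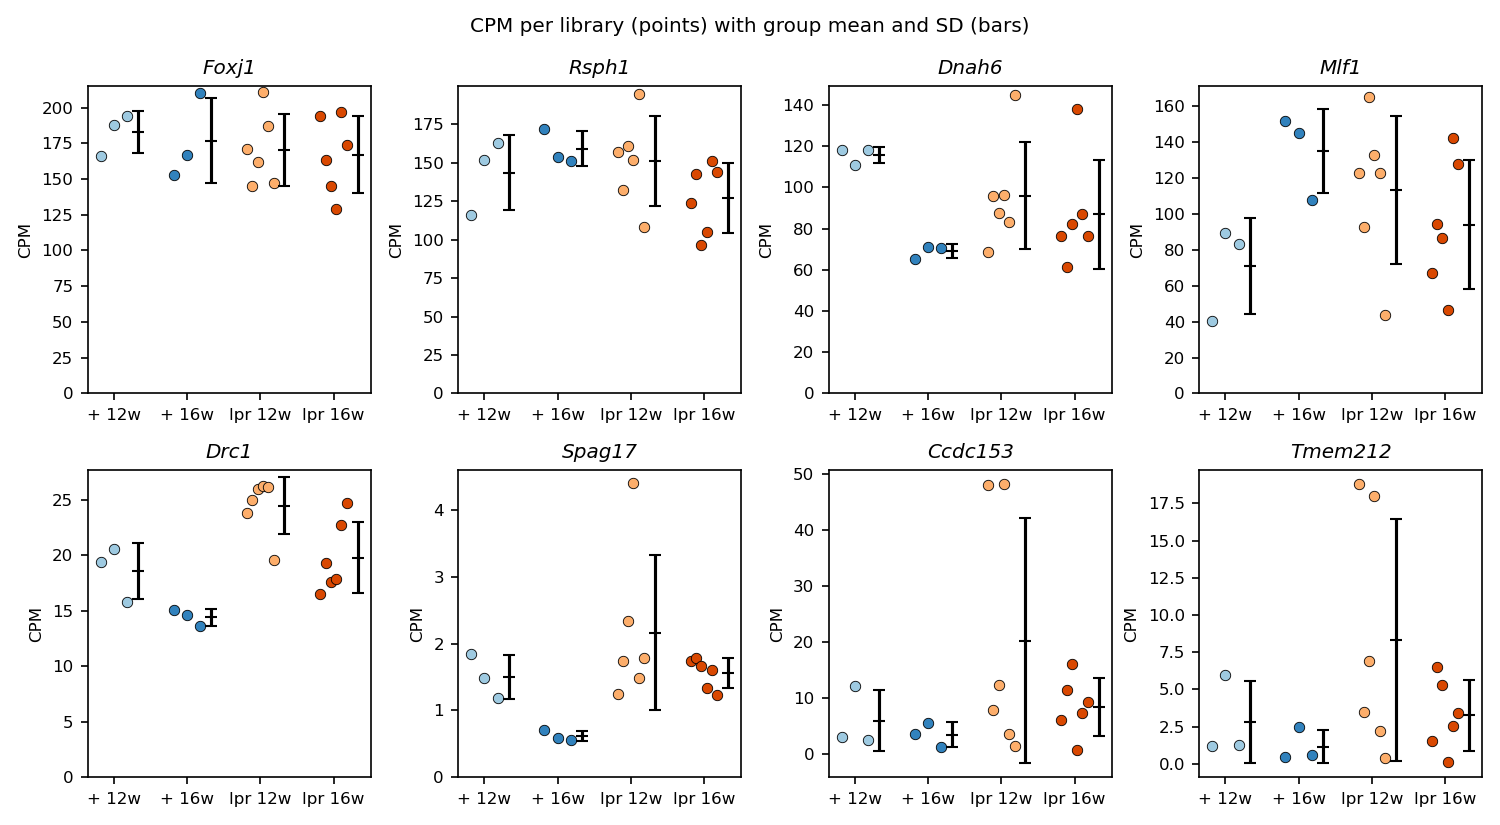
CPM of 8 members in each library (points), with the mean and SD of the group beside them, by strain and age. The groups of Foxj1 overlap, the 3 MRL/+ libraries at 16 weeks lie below all MRL/lpr libraries for Drc1 and Spag17, and MRL/lpr 12 weeks replicates 1 and 4 lie far above the others for Ccdc153 (48.1 and 48.2 CPM) and Tmem212 (18.8 and 18 CPM).

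**Figure D3:**
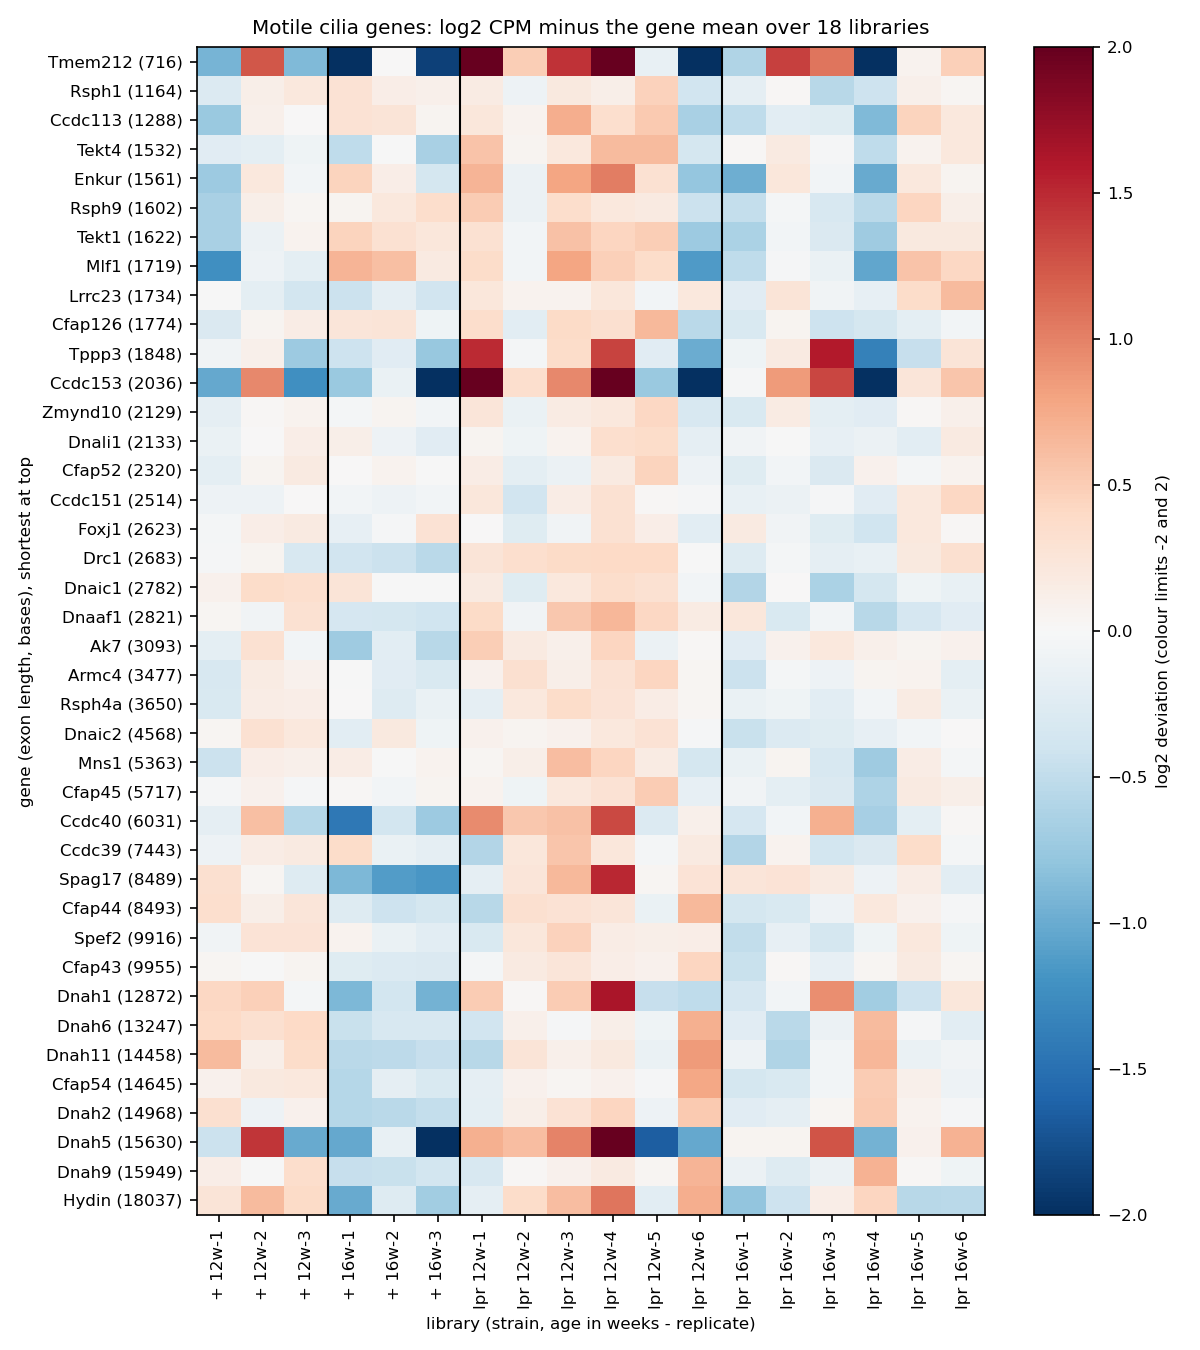
Log2 CPM of each tested member minus its mean over 18 libraries, with genes ordered by exon length from the shortest (top) and colours limited to -2 and 2. Tmem212, Ccdc153, Tppp3 and Dnah5 change most between libraries, and in MRL/lpr 12 weeks replicate 6 and MRL/lpr 16 weeks replicate 4 most of the short genes at the top are low while most of the longest genes at the bottom are high.

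At 12 weeks, no member was called between MRL/lpr and MRL/+. By edgeR's quasi-likelihood test with Benjamini-Hochberg adjustment over 16598 genes, 0 of 40 members passed an adjusted p of 0.05, where 6.36% of all tested genes did (5.01% higher and 1.34% lower in MRL/lpr). At an unadjusted p under 0.05 there were 2 members, Tekt4 and Drc1, both higher (12.1% of all genes were, and 21.4% passed in either direction). DESeq2 called 1 member, Drc1, which is 2.5% of the members, where it called 10% of all genes. The median log2 fold change of the members was 0.159, with 31 of 40 positive, beside a median of -0.0128 over all tested genes. Drc1, which encodes a subunit of the nexin-dynein regulatory complex, was at 19.4, 20.6 and 15.8 CPM in MRL/+ and at 19.6 to 26.2 CPM in MRL/lpr (median 25.5). No member had groups without overlap at this age, where 8.59% of all genes had all MRL/lpr libraries higher and 4.98% all lower. For Drc1 only the lowest MRL/lpr library, replicate 6, fell within the MRL/+ range, and its log2 fold change was 0.392 (SE 0.138, edgeR adjusted p = 0.103). Without that replicate Drc1 was called. The largest estimates were those of Ccdc153, at 1.776 (SE 1.017, adjusted p = 0.329), and Tmem212, at 1.569 (SE 1.045, adjusted p = 0.408). Without the 4 carry-over libraries they became -0.203 and -0.132.

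At 16 weeks, 4 of 40 members rose in MRL/lpr and none fell. That is 10% of the members, where 8.49% of all tested genes rose, 2.64% fell and 11.1% changed in either direction, so the share of members called was near that of all genes. The median log2 fold change of the members was 0.146 with 24 positive (0.0251 over all tested genes), and 0.687 with 38 positive when scaled to the choroid plexus epithelium list, where the median over all genes was 0.577. That scaling called 15 members, all higher, and 20.2% of all genes. At an unadjusted p under 0.05 there were 7 members, 6 of them higher, against 28.8% of all genes. The called members were Spag17, Ak7, Dnah2 and Drc1. Estimates of brain markers were mostly positive too: 14 of 14 neuron genes (median log2 fold change 1.296) and 8 of 10 astrocyte genes (median 1.275) were positive at this age. Neuron sums ran from 80.5 to 230 CPM in MRL/+ and from 99.1 to 920 CPM in MRL/lpr, and astrocyte sums from 198 to 343 CPM and from 234 to 1110 CPM. Their part in the members' estimates was not tested.

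Spag17, which encodes a large protein of the central apparatus, showed the largest called difference. It was at 0.702, 0.585 and 0.558 CPM in MRL/+ and at 1.74, 1.78, 1.66, 1.33, 1.61 and 1.23 CPM in MRL/lpr. All MRL/lpr libraries were above all MRL/+ libraries, and the level was 2.51-fold higher (log2 fold change 1.329, SE 0.377, edgeR adjusted p = 0.0319). These values rest on 6 to 8 counts per library in MRL/+ and 15 to 27 in MRL/lpr.

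Ak7, an adenylate kinase of the cilium, was at 18.9, 26.5 and 20.9 CPM in MRL/+ and at 26.3 to 35.9 CPM in MRL/lpr (median 32.6). The groups overlapped by 1 MRL/+ library, and the log2 fold change was 0.539 (SE 0.155, edgeR adjusted p = 0.0340). Dnah2, an inner arm heavy chain gene, was at 18.6, 19.0 and 19.8 CPM in MRL/+ and at 23.7 to 39.7 CPM in MRL/lpr (median 27.9). The groups did not overlap, and the level was 1.5-fold higher (log2 fold change 0.589, SE 0.179, edgeR adjusted p = 0.0435). Drc1 was at 15.1, 14.6 and 13.6 CPM in MRL/+ and at 16.5 to 24.7 CPM in MRL/lpr (median 18.6), again without overlap (log2 fold change 0.455, SE 0.140, edgeR adjusted p = 0.0449). Lrrc23, a radial spoke gene, came next, with a log2 fold change of 0.489 (SE 0.164, edgeR adjusted p = 0.0643), and DESeq2 called it with the other 4. That is 12.5% of the members, where DESeq2 called 15% of all genes.

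In all 4 called genes the MRL/+ libraries at 16 weeks had the lowest group mean, for example 0.615 ± 0.0763 CPM (SD, n = 3) for Spag17 against 1.5 ± 0.334 CPM (SD, n = 3) in MRL/+ at 12 weeks. The calls rested on few libraries. Ak7 lost its call without MRL/lpr 16 weeks replicate 2 (edgeR adjusted p = 0.0558) and without MRL/+ 16 weeks replicates 1 or 3 (0.184 and 0.139). Spag17 lost it without MRL/lpr 16 weeks replicates 1 or 2 (0.0516 and 0.0552) and without MRL/+ 16 weeks replicates 1, 2 or 3 (0.0876, 0.103 and 0.128). Dnah2 lost it without MRL/lpr 12 weeks replicates 2 or 4 (0.0552 and 0.0532), MRL/lpr 16 weeks replicates 3 or 4 (0.0720 and 0.0832), MRL/+ 12 weeks replicate 3 (0.0558) or MRL/+ 16 weeks replicates 1, 2 or 3 (0.154, 0.123 and 0.121). Drc1 lost it in 11 of 18 such fits: without replicates 1, 2, 3 or 5 of MRL/lpr at 12 weeks, replicates 2, 5 or 6 of MRL/lpr at 16 weeks, replicate 2 of MRL/+ at 12 weeks and each replicate of MRL/+ at 16 weeks, with adjusted p from 0.0506 to 0.170. Without the 4 carry-over libraries Spag17 alone was called (adjusted p = 0.0359). Without the filter on low counts Ak7 alone was, with adjusted p of 0.0567 for Spag17, 0.0684 for Dnah2 and 0.082 for Drc1, and with only the 2 groups in the fit Drc1 was not (0.072). The estimates of all 4 stayed positive in these fits.

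By role, the 16-week estimates differed in sign. The 3 outer arm heavy chain genes were positive, with a median log2 fold change of 0.513, as were the 3 inner arm heavy chain genes, with a median of 0.589. Of the 4 central apparatus genes 3 were positive (median 0.376), and of the 7 ruler, nexin link and tether genes 5 (median 0.275). In contrast 6 of the 7 microtubule inner and doublet genes were negative (median -0.215), and the 2 positive radial spoke genes, Lrrc23 and Rsph4a, stood beside the negative Rsph1 and Rsph9. These signs depended on the scaling: relative to the choroid plexus epithelium list 6 of the 7 microtubule inner and doublet genes (median 0.306) and all 4 radial spoke genes (median 0.392) were positive. Tekt1 was at 117, 106 and 101 CPM in MRL/+ and at 52.6 to 99.0 CPM in MRL/lpr (median 76.5), the only member whose MRL/lpr libraries all lay lower, with a log2 fold change of -0.499 that was not called (SE 0.255, edgeR adjusted p = 0.203). Non-overlap with MRL/lpr higher was seen for 4 members, Spag17, Drc1, Dnah2 and Dnah9 (9.91% of all genes), and with MRL/lpr lower for 1 (8.75% of all genes).

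**Figure D4:**
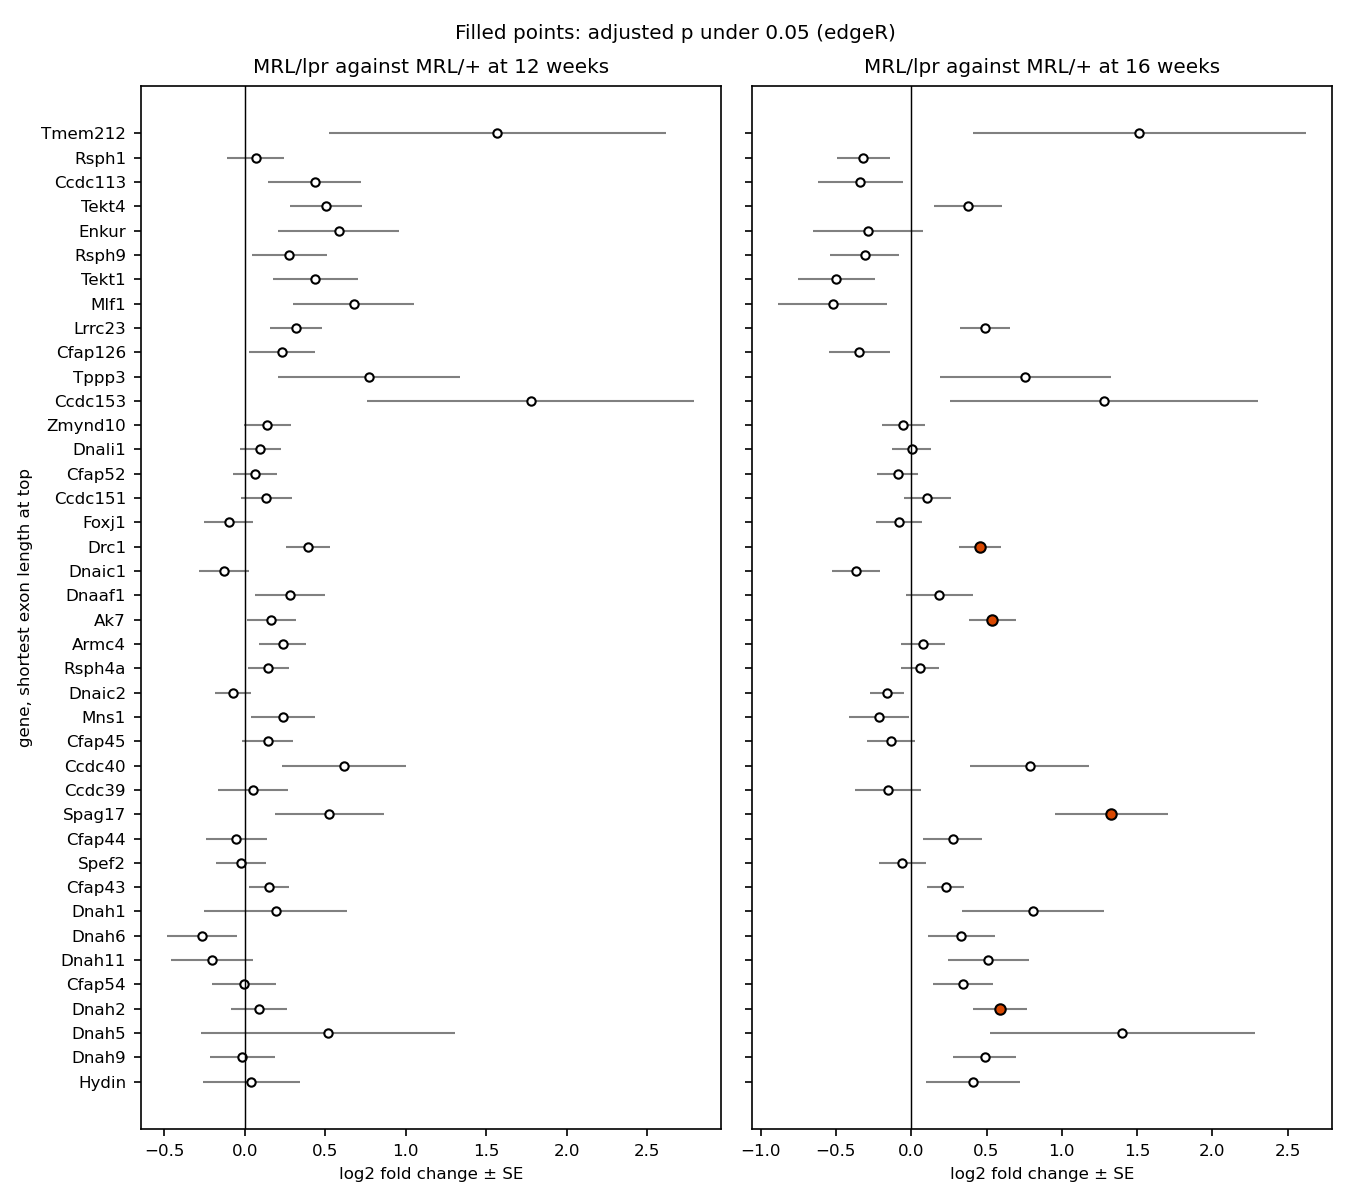
Log2 fold change of MRL/lpr against MRL/+ with its SE for 40 members at 12 weeks (left) and 16 weeks (right), ordered by exon length from the shortest (top), with filled points for an adjusted p under 0.05. No point is filled at 12 weeks, and Drc1, Ak7, Spag17 and Dnah2 are filled at 16 weeks, between 0.455 and 1.329.

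Between 12 and 16 weeks in MRL/lpr, 0 of 40 members were called by edgeR (0.0361% of all tested genes) and 0 by DESeq2 (0.464%). The estimates leaned one way: 39 of 40 were negative, with a median log2 fold change of -0.282 beside 0.0173 over all tested genes. With scaling to that epithelium list, 17 of 40 were positive and the median was -0.016, beside 0.297 over all genes. At an unadjusted p under 0.05, 13 members were lower and none higher, where 3.87% of all genes were lower and 6.73% passed in either direction. The smallest p belonged to Dnaic2, an outer arm intermediate chain gene, with a log2 fold change of -0.31 (SE 0.093, edgeR adjusted p = 0.404). Dnaic1, the other gene of that kind, was at 16.0 to 24.2 CPM at 12 weeks (median 21.7) and at 12.2 to 19.1 CPM at 16 weeks (median 15.9), and the groups overlapped (log2 fold change -0.425, SE 0.131, edgeR adjusted p = 0.412). Hydin, a central apparatus gene, was at 8.54 to 21.0 CPM at 12 weeks (median 14.0) and at 5.68 to 13.3 CPM at 16 weeks (median 7.08), with a log2 fold change of -0.705 (SE 0.248, edgeR adjusted p = 0.562). In MRL/+ Hydin was at 11.9, 15.5 and 12.9 CPM at 12 weeks and at 4.82, 8.28 and 6.06 CPM at 16 weeks. No member had groups without overlap in this comparison, where 0.139% of all genes were higher and 0.265% lower in that way.

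Between 12 and 16 weeks in MRL/+, 0 of 40 members were called by edgeR (0% of all tested genes) and 0 by DESeq2 (0.0602%). Of the estimates 30 were negative, with a median of -0.21 (all genes -0.0517), and 35 were negative with a median of -0.48 when scaled to the choroid plexus epithelium list. At an unadjusted p under 0.05 there were 11 members, against 13.1% of all genes. Of these 10 were lower (6.24% of all genes) and 1, Mlf1, was higher (6.86%). The 3 libraries at 16 weeks lay below the 3 at 12 weeks for 13 members (32.5%), where 14.4% of all genes did so, and above them for 2 members, Tekt1 and Mlf1, where 15.3% of all genes did so. Dnah6, an inner arm heavy chain gene, was at 118, 111 and 118 CPM at 12 weeks and at 65.3, 71.2 and 70.8 CPM at 16 weeks. Its libraries were well separated by age, and its log2 fold change was -0.74 (SE 0.256, edgeR adjusted p = 0.379). This comparison and that of the strains at 16 weeks share the 3 MRL/+ libraries at 16 weeks, so their estimates for a gene are not independent.

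No member was called for an interaction of strain and age (0 of 40 by edgeR and by DESeq2, and 0% of all tested genes). At an unadjusted p under 0.05 there were 2 members, both with a negative interaction (7.25% of all genes, and 13.8% in either direction). Tekt1 had an interaction of -0.936 (SE 0.367, edgeR adjusted p = 0.361) and Mlf1 one of -1.199 (SE 0.522, edgeR adjusted p = 0.361). Mlf1 was at 40.5, 89.1 and 83.3 CPM in MRL/+ at 12 weeks and at 152, 145 and 108 CPM in MRL/+ at 16 weeks. In MRL/lpr it ran from 43.7 to 165 CPM at 12 weeks and from 46.7 to 142 CPM at 16 weeks, so that its MRL/lpr ages overlapped each other.

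Exon length went with the sign of many of these estimates. The 10 longest members, of 9916 to 18037 bases, comprise 6 dynein heavy chain genes with Hydin, Spef2, Cfap43 and Cfap54. The 10 shortest, of 716 to 1774 bases, comprise Tmem212, Rsph1, Ccdc113, Tekt4, Enkur, Rsph9, Tekt1, Mlf1, Lrrc23 and Cfap126. In each library the median log2 deviation of the shortest was subtracted from that of the longest. The difference was 1.193 in MRL/lpr 12 weeks replicate 6, 1.099 in MRL/lpr 16 weeks replicate 4 and 0.844 in MRL/+ 12 weeks replicate 1. It was positive in all MRL/+ libraries at 12 weeks (0.844, 0.157 and 0.267) and negative in all those at 16 weeks (-0.817, -0.469 and -0.396). The other MRL/lpr libraries lay between -0.552 and 0.215.

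All tested genes of the same lengths moved to the same side, by 0.612, 0.6 and 0.729 in the 3 high libraries and by -0.27, -0.28 and -0.162 in MRL/+ at 16 weeks. All 10 longest members had negative estimates between 12 and 16 weeks in MRL/+ (median -0.691), 8 of them without overlap, while 7 of the 10 shortest were positive (median 0.21). Scaling to the choroid plexus epithelium list left all 10 longest negative and 5 of the 10 shortest positive. In the strain comparison at 16 weeks, 9 of the 10 longest were positive (median 0.448) and 7 of the 10 shortest negative (median -0.314), although with the epithelium scaling 8 of the shortest were positive. At 12 weeks all 10 shortest were positive (median 0.436), and 7 were without the 4 carry-over libraries.

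With the trend of each library on gene length taken into the fit, a setting added after the values were seen, 5 members were called at 16 weeks, the 4 above and Lrrc23. That is 12.5% of the members, near the 12.7% of all tested genes called in that fit. The estimate of Dnah2 moved from 0.589 to 0.429 and kept its call (adjusted p = 0.026). The 10 longest members in MRL/+ between the ages moved from a median of -0.691 to -0.372. Leaving out the 3 libraries in which long members stood highest also gave those 5 members at 16 weeks, where 12.1% of all tested genes were called. Measures of the libraries moved with the pattern in some libraries and not in others. The 3 libraries in which long members stood highest had the lowest shares of mitochondrial counts of the 18 (4.78%, 5.12% and 5.18%, in the order above) and the lowest sums of the 9 heat shock and stress genes (1250, 1660 and 1650 CPM). MRL/+ libraries at 16 weeks, with long members low, had 9.07% to 10.9% mitochondrial counts and stress sums of 3010 to 3750 CPM. Long members were also low in MRL/lpr 12 weeks replicates 1 and 5 (differences of -0.552 and -0.51). Those 2 libraries had 7.2% and 7.52% mitochondrial counts and stress sums of 1700 and 1690 CPM, near the sums of the libraries with long members high. Over all libraries these measures ran from 4.78% to 10.9% and from 1250 to 3750 CPM, and their part in the pattern was not tested.

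**Figure D5:**
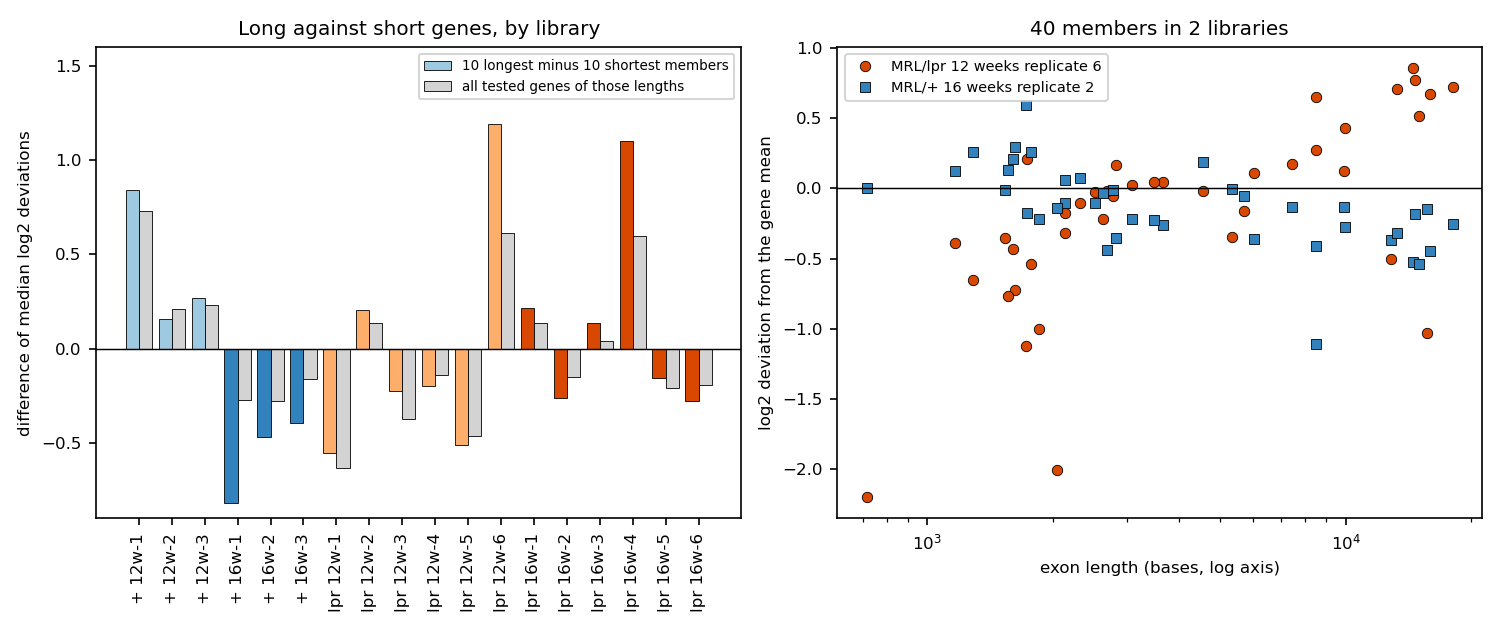
Left: median log2 deviation of the 10 longest members minus that of the 10 shortest, per library (coloured bars), beside the same over all tested genes of those lengths (grey bars). Right: log2 deviation of 40 members against exon length on a log axis in MRL/lpr 12 weeks replicate 6 and MRL/+ 16 weeks replicate 2. The bars are tallest in MRL/lpr 12 weeks replicate 6 (1.193) and MRL/lpr 16 weeks replicate 4 (1.099), and the long members lie above 0 in the first of the plotted libraries and below 0 in the second, with exceptions.

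Other genes of the cilium were read from further lists. In a list of 83 further motile cilia genes, 79 were in the table and 76 tested. None was called at 12 weeks by edgeR, where 6.36% of all tested genes were. At an unadjusted p under 0.05, 5 were higher and 2 lower at that age (12.1% and 9.33% of all genes). DESeq2 called 1, Spag8, and 10% of all genes. At 16 weeks 3 rose and 1 fell (8.49% and 2.64% of all genes), with a median log2 fold change of -0.028. Dnah8, a dynein heavy chain gene, rose by 4.429 on the log2 scale (SE 0.966, edgeR adjusted p = 0.00773). It was at 0.702, 0.877 and 1.36 CPM in MRL/+ at 16 weeks and at 28.1, 23.4, 26.2, 43.5, 5.77 and 1.23 CPM in MRL/lpr replicates 1 to 6, where the leukocyte markers summed to 13700, 11300, 5920, 11900, 2880 and 627 CPM. Replicate 6 was low in both. At 12 weeks Dnah8 was at 4.92, 5.58, 4.11, 4.60, 3.57 and 20.7 CPM in MRL/lpr replicates 1 to 6. The leukocyte sums there were 7810, 3360, 2950, 2210, 2220 and 6580 CPM. In MRL/lpr at each age Dnah8 was highest in the library where long members stood highest. All 12 leukocyte markers rose at both ages, where 5.01% of all genes rose at 12 weeks and 8.49% at 16 weeks. The part of leukocytes and of the length pattern in the level of Dnah8 was not tested. Its adjusted p was 0.0515 without MRL/+ 16 weeks replicate 1 and 0.0893 without the 4 carry-over libraries.

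Dnah7a, an inner arm heavy chain gene, was at 0.965, 0.975 and 1.04 CPM in MRL/+ and at 1.70 to 3.24 CPM in MRL/lpr at 16 weeks (log2 fold change 1.243, SE 0.340, edgeR adjusted p = 0.0264). The near-identical Dnah7b and Dnah7c could share reads with it, so its level is uncertain. Without MRL/+ 16 weeks replicates 1, 2 or 3 its adjusted p was 0.104, 0.0906 or 0.0931, and it was 0.0767 without the carry-over libraries and 0.0578 with the length trend. Ccdc114, a docking gene of the outer arm, rose by 0.32 (SE 0.099, edgeR adjusted p = 0.0468) and lost its call without the carry-over libraries (0.157), without the filter (0.121), with only the 2 groups in the fit (0.0779) and with the length trend (0.0793). It also lost it in 12 of the 18 fits without 1 library: replicates 2, 3 or 5 of MRL/lpr at 12 weeks, replicates 2, 4, 5 or 6 of MRL/lpr at 16 weeks, replicates 2 or 3 of MRL/+ at 12 weeks and each replicate of MRL/+ at 16 weeks, with adjusted p from 0.0533 to 0.170. Spag16, of the central apparatus, fell by 0.739 on the log2 scale (SE 0.201, edgeR adjusted p = 0.0259), from 65.8 to 77.2 CPM in MRL/+ to 34.8 to 49.8 CPM in MRL/lpr. Its adjusted p was 0.119, 0.0617 or 0.0825 without MRL/+ 16 weeks replicates 1, 2 or 3, 0.0862 without the carry-over libraries and 0.273 with the epithelium scaling.

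At 16 weeks 8.49% of all tested genes rose, and 1 of the 14 tested multiciliogenesis regulators did. This was Myb, which acts in multiciliated cells and in blood cell precursors, with a log2 fold change of 4.357 (SE 0.728, edgeR adjusted p = 0.00195). It was at 0.351, 0.292 and 0.239 CPM in MRL/+ and at 8.20, 8.30, 8.14, 9.14, 2.17 and 1.15 CPM in MRL/lpr replicates 1 to 6. The lowest of these replicates had the lowest leukocyte sum, and the highest was the one where long members stood highest. At 12 weeks Myb was at 3.17, 2.68, 2.42, 3.22, 0.958 and 4.71 CPM in MRL/lpr replicates 1 to 6, again highest where long members stood highest. The part of leukocytes and of the length pattern in the level of Myb was not tested. None of the 25 intraflagellar transport genes, which carry cargo along cilia of every kind, and none of the 9 genes of the BBSome, a ciliary membrane complex, was called by edgeR in any of the 5 comparisons. Between the strains, edgeR called 6.36% of all tested genes at 12 weeks and 11.1% at 16 weeks. Of the transport genes, 2 at 12 weeks and 5 at 16 weeks were lower in MRL/lpr at an unadjusted p under 0.05 (9.33% and 12.7% of all genes). DESeq2 called 2 transport genes at 16 weeks, Dync2li1 and Ift57, and 15% of all genes. Of the BBSome genes 1 was lower at each age at an unadjusted p under 0.05, beside the same shares of all genes, and DESeq2 called none. The median log2 fold change between the strains was -0.077 for transport genes and 0.063 for the BBSome at 12 weeks, and -0.158 and -0.242 at 16 weeks.

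Of the 23 genes of the choroid plexus epithelium list none was called by edgeR at 12 weeks, where 6.36% of all tested genes were. At an unadjusted p under 0.05, 2 were lower at 12 weeks (9.33% of all genes), and DESeq2 called Prlr (10% of all genes). By edgeR 4 fell at 16 weeks, where 2.64% of all genes did: Steap1, Kcne2, Prlr and Htr2c. Their log2 fold changes ran from -1.283 to -0.677. At an unadjusted p under 0.05, 13 of the 23 were lower at 16 weeks, where 12.7% of all genes were. DESeq2 called 6 at that age, these 4 with Enpp2 and Sostdc1, where it called 15% of all genes. Summed over the list, the level was 281000 to 327000 CPM in MRL/+ at 16 weeks and 164000 to 295000 CPM in MRL/lpr at 16 weeks. Summed over the 41 motile cilia genes it was 1808 to 1897 CPM in MRL/+ at 16 weeks and 1563 to 2126 CPM in MRL/lpr at 16 weeks. The MRL/+ libraries thus lay within the MRL/lpr range for the cilia genes and, but for 1 library, above it for the epithelium. Most of the epithelium sum is Ttr, so this sum and the epithelium scaling largely follow that gene. At 16 weeks Ttr was at 204000, 189000 and 233000 CPM in MRL/+ and at 122000 to 211000 CPM in MRL/lpr.

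Some levels are uncertain because exons overlap a gene on the opposite strand and the strand setting of the counting is not stated. The part shared with any given other gene was at least 10% of exon bases for 4 members. These were Mns1 (53.0% with Tex9), Dnaaf1 (20.7% with Taf1c), Ccdc39 (16.9% with Ttc14) and Zmynd10 (10.1% with Gm34106). For the 4 members called at 16 weeks the part shared with any given gene was below that limit. Spag17, however, shared 9.7% of its exon bases with Wdr3 and 6.1% with Spag17os. Whether these bases coincide was not tested, so its total shared part may exceed the limit and its level is uncertain too.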

How the data were processed

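RNA from 18 choroid plexus samples was sequenced as TruSeq libraries on a HiSeq2500, per the labels' protocols. The values used are the authors' deposited raw counts per gene, made with STAR 2.5.3a and featureCounts 1.26.0 on GRCm38, per the submitters' processing notes, which also name DESeq2 1.16.1. The annotation release and the strand and multimapping settings are not stated there or in the labels. Groups came from the strain and age in the labels.

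All 50584 genes entered edgeR 4.0.16 (R 4.3.3) with limma 3.58.1: genes with low counts were removed by group (16598 kept), TMM scaling was applied, and a robust quasi-likelihood fit with 1 mean per group over 18 libraries gave 5 comparisons, with Benjamini-Hochberg adjustment over all genes tested. A gene is called at an adjusted p under 0.05. Log2 deviations used a prior count of 2. The test was checked on simulated data. Within groups, 36 pairs of libraries were compared, and none looked like 1 library deposited again (smallest chi-square per gene 5.61).

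Alternatives were DESeq2 1.42.0, scaling to the choroid plexus epithelium list, no filter, only the groups compared, a replicate block, leaving out each library and leaving out the 4 carry-over libraries. A length trend in the fit (lowess, span 0.3) and leaving out the 3 libraries highest in long members were chosen after seeing the data. The members and lists were chosen with earlier results of these data known. Members named are those called, with 1 or more examples of each role, and from other lists the called genes. Sections on exon length and single libraries name genes chosen after their values were seen.

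Most same-numbered libraries of different groups did not deviate together (15 pairs, correlations from -0.619 to 0.45, 4 of them over 0.1).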

Additional observations from a re-analysis of the deposited data

Results flagged for a closer look

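In groups of 6, a library was marked when its gap to the nearest other library exceeded Dixon's 95% critical value for the gap over the group's range. Of 80 combinations of gene and group 11 were marked, where chance marks about 1 in 20. In MRL/lpr 12 weeks replicate 4, Dnah5 was at 7.62 CPM (nearest other library 2.98), Dnah1 at 9.79 CPM (4.43) and Spag17 at 4.4 CPM (2.34). In MRL/lpr 12 weeks replicate 6, Dnah6 was at 145 CPM (nearest other 96.1) and Cfap54 at 122 CPM (75.6), while Drc1 was low at 19.6 CPM (23.8). In MRL/lpr 16 weeks replicate 4, Dnah9 was at 82.8 CPM (52.0), Dnah11 at 51.4 CPM (30.9), Dnah2 at 39.7 CPM (29.1) and Dnah6 at 138 CPM (87.0). In MRL/lpr 16 weeks replicate 3, Tppp3 was at 63.3 CPM (25.2). The genes high in MRL/lpr 12 weeks replicate 6 and MRL/lpr 16 weeks replicate 4 are among the 10 longest members, and those libraries had the largest differences of long against short members (1.193 and 1.099).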

How the results depend on the processing

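The number of members called at 12 weeks was 0, and 1 (Drc1) with DESeq2, and ranged from 0 to 1 when 1 library was left out. At 16 weeks it was 4, against 15 with the epithelium scaling, 1 without the filter on low counts (Ak7), 1 without the 4 carry-over libraries (Spag17) and 3 with only the groups compared (Ak7, Dnah2 and Spag17). It ranged from 0 to 5 when 1 library was left out, with 0 without MRL/+ 16 weeks replicates 1 or 3, 1 without MRL/+ 16 weeks replicate 2 or MRL/lpr 16 weeks replicate 2, and 2 without MRL/lpr 12 weeks replicate 2. With a replicate block the number at 16 weeks was 0, and 1424 genes were called in place of 1849. The numbers did not pair the samples in most cases: 4 of 15 pairs correlated over 0.1 and 4 correlated best with their own number. Both age comparisons and the interaction had 0 members called in every setting run, and the interaction was not run on only the groups compared, since it uses all 4.

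With the epithelium scaling the median of the members was 0.687 at 16 weeks, -0.016 between ages in MRL/lpr, -0.48 between ages in MRL/+ and 0.472 for the interaction, while the median over all genes also moved, to 0.577, 0.2967, -0.3472 and 0.6524. The interaction median was 0.063 without the carry-over libraries. With that scaling 1 of 40 members changed sign at 12 weeks, 14 at 16 weeks, 16 between ages in MRL/lpr, 5 between ages in MRL/+ and 18 for the interaction, and without the carry-over libraries 13, 2, 8, 7 and 10 did. Among the genes followed through every setting, those that changed sign were Ccdc153 (-0.203) and Tmem212 (-0.132) at 12 weeks without the carry-over libraries, Dnaic1 (0.141) and Foxj1 (0.46) at 16 weeks and Rsph4a (0.045) and Cfap43 (0.022) between ages in MRL/lpr with the epithelium scaling, and Foxj1 at 16 weeks without MRL/lpr 16 weeks replicate 4 (0.004) or MRL/+ 16 weeks replicate 3 (0.058). Over the fits without 1 library this Foxj1 estimate ran from -0.177 to 0.058. The cause was not tested.

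Over all genes, 1055 were called at 12 weeks, against 1665 with DESeq2, 579 with the epithelium scaling, 34 without the carry-over libraries, 259, 384 and 321 without MRL/+ 12 weeks replicates 1, 2 and 3, and 532 without the 3 libraries highest in long members. At 16 weeks 1849 were called, against 3349 with the epithelium scaling, 503 without the carry-over libraries and 771, 858 and 665 without MRL/+ 16 weeks replicates 1, 2 and 3. Between ages in MRL/lpr it was 6, against 77 with DESeq2, and in MRL/+ 0, against 10. The share of called genes that were higher was 78.9% at 12 weeks and 76.3% at 16 weeks, and 95.5% and 98.8% with the epithelium scaling. Without the filter it was 91.5% and 87.3%. At 12 weeks it was 90.2% with only the groups compared and 49.6% without those 3 libraries. Members with few counts, such as Spag17 and Dnah5, limit what depth can show.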
